A study of Mus musculus with 18 samples.

Results

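PA6 cells, a mouse stromal line, were grown alone for 3 days in serum-free medium and either left without growth factors (PA6 -GFs) or treated with recombinant BMP4 at 10 ng/ml (PA6 BMP4), with 3 replicates in each group. The dose is that of the labels, and the study's methods give a lower one for co-cultures grown on slides. These PA6 mono-cultures belong to a study of 18 arrays that asked how FGF2 and BMP4 act on murine embryonic stem (ES) cells grown on PA6 cells. The mono-cultures received the same factors so that signals of the stroma could be told from those of the ES cells. Every group in the comparison is the same cell line in the same medium on day 3, so the line itself is a limit of the model. The labels describe 1 well per condition for each biological replicate and say nothing further about how separate the replicates were. The p-values measure the spread between wells within groups, pooled over the 6 groups of all 18 arrays, co-cultures included.

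Gene expression was measured on Illumina bead arrays, which give 1 fluorescence intensity and 1 detection p-value per probe. Members were the probes whose detection p was below 0.05 on 3 or more of these 6 arrays. They were 18024 of 45281 probes and carried 12880 gene names. At the edge of this rule, 782 probes were detected on exactly 3 arrays and 988 on 2, while 15570 members were detected on all 6. One probe stood for each gene, the one with the largest mean over all 18 arrays, and 12848 genes were tested through a member probe. Values below are normalized log2 intensities, a change is the BMP4 mean minus the -GFs mean of these, and a gene was called at an adjusted p under 0.1 in limma and an absolute change over 1.

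BMP4 is a secreted ligand of the TGFβ superfamily. It binds a pair of receptor kinases, which phosphorylate SMAD1, SMAD5 and SMAD9, and these enter the nucleus with SMAD4 and activate genes such as the ID genes, which encode inhibitors of DNA binding, and the inhibitory SMADs that close a feedback loop. In mesenchymal cells BMPs are known for directing cells toward bone, cartilage and fat.

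The 6 arrays were alike in quality. Between 17125 and 18391 probes were detected per array, arrays of a group correlated across genes at 0.988 to 0.991 and arrays of different groups at 0.978 to 0.984. A first principal component that held 46.3% of the variance placed the -GFs arrays between -21.7 and -17.8 and the BMP4 arrays between 15.9 and 24.9. All 11 stromal fibroblast markers were detected on every array of both groups, and their summed linear intensity was 202700 to 208100 in -GFs and 194400 to 206400 with BMP4. Of 9 ES cell markers tested, only KLF4 and POU5F1 were members, and the summed level of the 9 was 1428 to 1606 in -GFs and 883 to 1077 with BMP4, against 41670 to 59130 in ES/PA6 co-cultures without factors. KLF4, a transcription factor that many somatic cells use, read 10.26, 10.23 and 9.96 in -GFs and 9.25, 8.75 and 9.25 with BMP4, and fell by 1.07 (adjusted p 0.0255), a call lost without -GFs replicate 1 (-1.01, adjusted p 0.102) or BMP4 replicate 2 (-0.90, adjusted p 0.136). None of 3 neural markers was detected.

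BMP4 changed the level of 220 of the 12848 member genes, which is 1.71%, against 1.41% of all 16446 genes tested. Of these, 132 (1.03%) rose and 88 (0.685%) fell. A gene here is a name in the array's table, and some genes carry more than 1 name. Of the 220, 190 matched a current symbol, with 185 distinct symbols among them. At an unadjusted p under 0.05 there were 1844 member genes, and at an adjusted p under 0.1 with no fold threshold 590. The lists below are to be read against these counts, and at 1.71% a short list with no call does not stand out. The median change of all members was 0.01, with the 5th and 95th percentiles at -0.49 and 0.49. Among the called genes, 19 rose and 12 fell by more than 2 on the log2 scale, and the median change was 1.35 in those that rose and -1.35 in those that fell. In 217 of the 220 the 3 BMP4 arrays all lay beyond the 3 -GFs arrays, a separation found in 3095 members (24.1%). The 12 largest rises and 12 largest falls named below were taken only from genes with this separation, so it was fixed for them. Some genes were detected in 1 group only: 96 members were detected on all 3 BMP4 arrays and no -GFs array, 22 of them called, and 31 were detected on all 3 -GFs arrays and no BMP4 array, 11 of them called. These genes are members only through the group that detects them, so their share of calls is no result about them. The BMP4 arrays detected 17705 to 18391 probes each and the -GFs arrays 17125 to 18109. Of 94 further probes for the called genes, 88 changed in the same direction as the gene's main probe and 52 by more than 1.

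**Figure D1:**
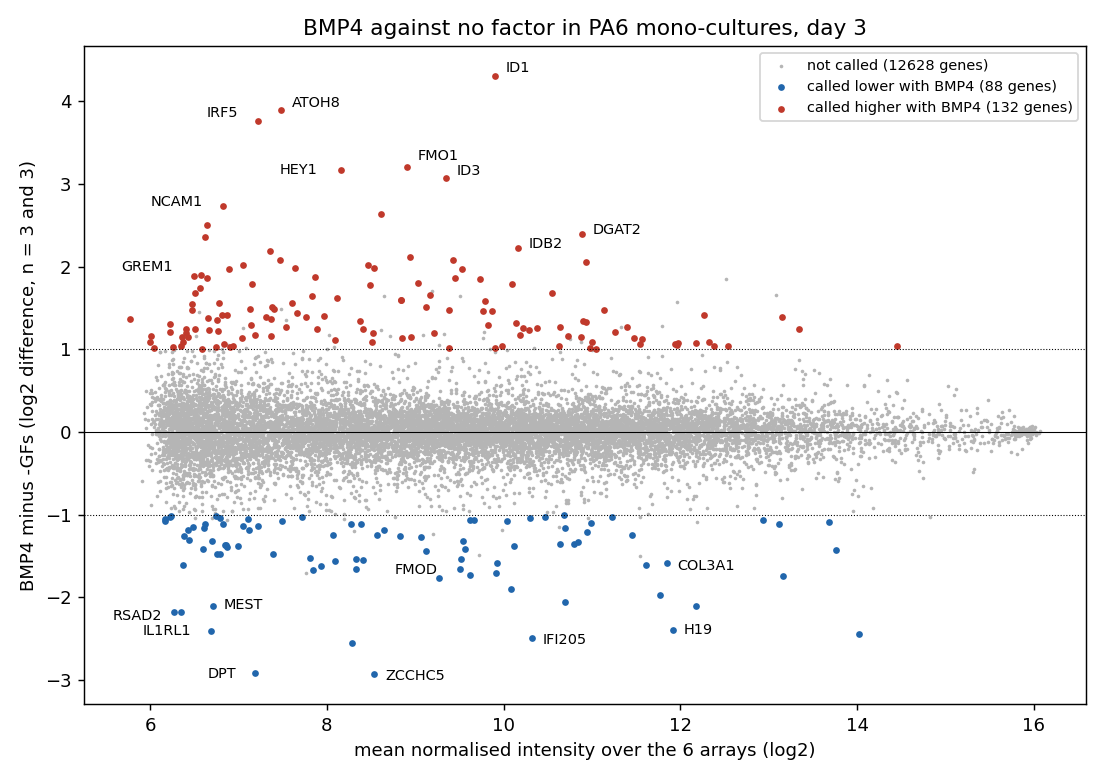
Change with BMP4 in PA6 mono-cultures (BMP4 mean minus -GFs mean, log2, vertical) against the mean log2 intensity over the 6 arrays (horizontal), 1 point per member gene. Red marks the 132 genes that rose, blue the 88 that fell and grey those not called, with dotted lines at changes of 1 and -1. ID1 lies at 4.31 and ZCCHC5 at -2.93, and points of genes below detection in 1 group are fitted values, not sizes of change.

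The clearest group was that of the BMP target genes. Of 26 on the list, 16 were members, 8 of these rose and none fell, with a median change of 1.18 against 0.01 over all members (1.0 with the 2 members that were below detection in -GFs set at their bound). ID1, which blocks basic helix-loop-helix factors, read 7.35, 8.15 and 7.76 in -GFs and 12.02, 12.16 and 11.9999 with BMP4. It was 19.8-fold higher with BMP4, a change of 4.31 ± 0.44 (SE; adjusted p 8.72e-05). Its 3 BMP4 arrays were nearly equal and far above all -GFs arrays. ID3 read 7.59, 8.12 and 7.73 in -GFs and 11.13, 10.65 and 10.87 with BMP4, a change of 3.07 ± 0.22 (adjusted p 1.03e-06). ID2 went from 9.09, 8.62 and 8.72 to 11.08, 10.50 and 10.39 (1.85 ± 0.31, adjusted p 0.00358), and ID4 from 9.41, 9.10 and 9.11 to 11.48, 10.67 and 10.81 (1.78 ± 0.23, adjusted p 0.000471). None of the 4 ID genes had overlapping groups, which for ID1 and ID3 was a condition for a place among the 12 largest rises. The array table also carries older names for the same genes, and these probes rose as well: IDB2, an old name of ID2, changed by 2.23 and IDB4, an old name of ID4, by 1.96.

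ATOH8, a basic helix-loop-helix factor, read 5.69, 5.46 and 5.46 in -GFs, where it was detected on no array, and 9.66, 9.38 and 9.25 with BMP4. It was at least 8.75-fold higher with BMP4 (adjusted p 4.08e-07). HEY1, a transcriptional repressor that both Notch and BMP signals induce, read 6.94, 6.49 and 6.29 in -GFs and 9.71, 10.04 and 9.47 with BMP4, a change of 3.16 ± 0.38 (adjusted p 0.000331). The groups were apart in both genes, as the rule for the 12 largest rises required. SMAD6, an inhibitory SMAD, went from 8.60, 9.21 and 9.30 to 10.61, 10.45 and 10.44 (1.47, adjusted p 0.00854). SNAI2, a repressor of epithelial genes that was already bright in -GFs at 12.53, 12.48 and 12.35, read 13.79, 13.93 and 13.80 with BMP4 (1.39, adjusted p 0.00213). Each of these 8 calls held in all alternatives that tested the gene, including without any 1 array.

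The other 8 members of the list did not pass. DLX6 was detected only with BMP4, at 5.75, 5.70 and 6.32 in -GFs against 6.83, 7.25 and 6.62, at least 1.52-fold higher (adjusted p 0.0168), and its fitted change passed both thresholds without -GFs replicate 3, BMP4 replicate 1 or BMP4 replicate 3. GATA6 changed by 0.61, MSX1 by 0.08, GATA2 by 0.02, TBX3 by -0.20 and RGMB, a BMP co-receptor, by -0.62 (adjusted p 0.0471). MSX1, a homeobox factor, read 9.37, 9.36 and 9.53 against 9.64, 9.40 and 9.46, with overlapping groups. The genes that rose were thus the ID genes, SMAD6, ATOH8, HEY1 and SNAI2.

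Promoters of BMP target genes and of GREM1 are shown to set some that hold a SMAD-binding motif beside some that hold none. The motifs searched, on both strands, were GGCGCC, a GC-rich SMAD-binding sequence, and GTCTAGAC, a palindromic SMAD-binding sequence. They share no letters in the matches below. Sequences are from RefSeq, build GRCm38.p6, written 5′ to 3′ on the strand of the gene, and hold the 250 bases before the annotated start, with 4 bases after it where a match crosses the start. Capitals mark a motif. Shown first are ID2 (chr12:25096093-25096342, minus strand), ID4 (chr13:48260866-48261115, plus strand), SMAD6 (chr9:64022056-64022309, minus strand) and the antagonist GREM1 (chr2:113758649-113758898, minus strand), which hold a match, and then ID3 (chr4:136143572-136143821, plus strand) and ATOH8 (chr6:72235578-72235827, minus strand), which rose too and hold none.
Id2: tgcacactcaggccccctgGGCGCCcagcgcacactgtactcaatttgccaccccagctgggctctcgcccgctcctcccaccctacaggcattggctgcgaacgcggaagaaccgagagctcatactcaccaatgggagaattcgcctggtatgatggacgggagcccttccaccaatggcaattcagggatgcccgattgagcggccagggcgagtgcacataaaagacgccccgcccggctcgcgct
Id4: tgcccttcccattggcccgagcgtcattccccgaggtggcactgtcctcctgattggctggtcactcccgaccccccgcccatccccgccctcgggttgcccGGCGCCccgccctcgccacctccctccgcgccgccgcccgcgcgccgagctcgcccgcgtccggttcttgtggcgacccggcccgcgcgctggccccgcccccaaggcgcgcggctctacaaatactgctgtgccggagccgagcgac
Smad6: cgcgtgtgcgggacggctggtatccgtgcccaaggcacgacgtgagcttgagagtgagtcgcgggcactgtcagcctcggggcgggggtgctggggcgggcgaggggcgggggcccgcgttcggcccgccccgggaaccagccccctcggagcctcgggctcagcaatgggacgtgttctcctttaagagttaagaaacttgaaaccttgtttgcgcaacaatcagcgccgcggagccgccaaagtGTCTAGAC
Grem1: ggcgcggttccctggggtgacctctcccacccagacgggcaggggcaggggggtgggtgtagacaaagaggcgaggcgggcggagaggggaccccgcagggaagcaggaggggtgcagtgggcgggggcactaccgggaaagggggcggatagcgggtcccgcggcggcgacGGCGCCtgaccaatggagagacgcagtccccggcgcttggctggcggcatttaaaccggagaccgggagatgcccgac
Id3: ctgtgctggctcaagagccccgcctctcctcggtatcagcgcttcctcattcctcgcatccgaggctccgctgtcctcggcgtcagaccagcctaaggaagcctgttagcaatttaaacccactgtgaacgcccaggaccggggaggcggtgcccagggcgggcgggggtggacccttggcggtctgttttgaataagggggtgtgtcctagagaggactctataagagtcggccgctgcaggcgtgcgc
Atoh8: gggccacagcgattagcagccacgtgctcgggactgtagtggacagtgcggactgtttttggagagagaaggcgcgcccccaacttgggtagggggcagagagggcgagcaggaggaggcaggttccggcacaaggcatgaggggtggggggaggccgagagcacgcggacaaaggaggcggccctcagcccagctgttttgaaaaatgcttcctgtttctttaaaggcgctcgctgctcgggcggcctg
The match began 231 bases before the start in Id2, 148 in Id4, 78 in Grem1 and 4 in Smad6, where the palindrome crosses the start. In windows that ran from 250 bases before to 50 after the start, GGCGCC was found in 3898 of 32851 promoters (11.9%), in 20.8% of the promoters of member genes, in 31 of 118 promoters of genes that rose (26.3%) and in 9 of 72 promoters of genes that fell (12.5%). GTCTAGAC was found in 0.213% of all promoters, in 2 of the 118 and in 0 of the 72. These are matches of letters, and no binding was measured here.

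The ligand, receptor and SMAD genes of the pathway moved little. BMP4 was added as recombinant protein, so the array reads the cells' own transcript. Its own gene, BMP4, read 10.27, 11.25 and 11.42 in -GFs and 9.75, 9.75 and 10.37 with BMP4, a change of -1.02 ± 0.26 (adjusted p 0.0471). The groups overlapped, the second BMP4 probe changed by 0.00, and the gene no longer passed without -GFs replicate 2 (-0.89) or 3 (-0.80) and without BMP4 replicate 1 or 2 (-0.92 for each). The other 4 member ligands, BMP1, BMP5, GDF1 and INHBA, changed by -0.20, 0.18, -0.36 and 0.01. Of 17 receptor and SMAD genes, none was called by limma and 3 had an unadjusted p under 0.05, with a median change of 0.02. The type I receptors BMPR1A and ACVR1 changed by -0.16 and -0.01, the type II receptors ACVR2A and ACVR2B by -0.11 and 0.04, and the signal carriers SMAD1 and SMAD5 by 0.03 and 0.06. ACVRL1 and ENG, a receptor and co-receptor best known from endothelium, changed by -0.87 (adjusted p 0.23) and -0.80 (adjusted p 0.0665), and -0.87 was the lowest value of the list. BMPR2 was detected on 1 BMP4 array and was not a member.

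Among 10 member antagonists, 1 rose and 1 fell. GREM1, which binds BMP4 outside the cell and keeps it from its receptors, read 5.54, 5.57 and 5.75 in -GFs, below detection on all 3 arrays, and 6.93, 7.27 and 8.36 with BMP4. It was at least 2.33-fold higher with BMP4 (adjusted p 0.0145), and every BMP4 array lay above every -GFs array. NBL1, an antagonist of the DAN family, read 10.68, 10.90 and 10.88 against 9.79, 9.61 and 9.93 and fell by 1.04 (adjusted p 0.0459). It did not pass once -GFs replicate 2 or 3 was left out (-1.003 and -1.01, adjusted p 0.141 and 0.136), nor after leaving out BMP4 replicate 1 or 2 (-1.05 and -0.96, adjusted p 0.111 and 0.173). Over all alternatives its adjusted p ran from 0.00652 to 0.173. CHRD changed by -0.42, FST by -0.15, BMPER by 0.23 and TWSG1 by 0.27.

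**Figure D2:**
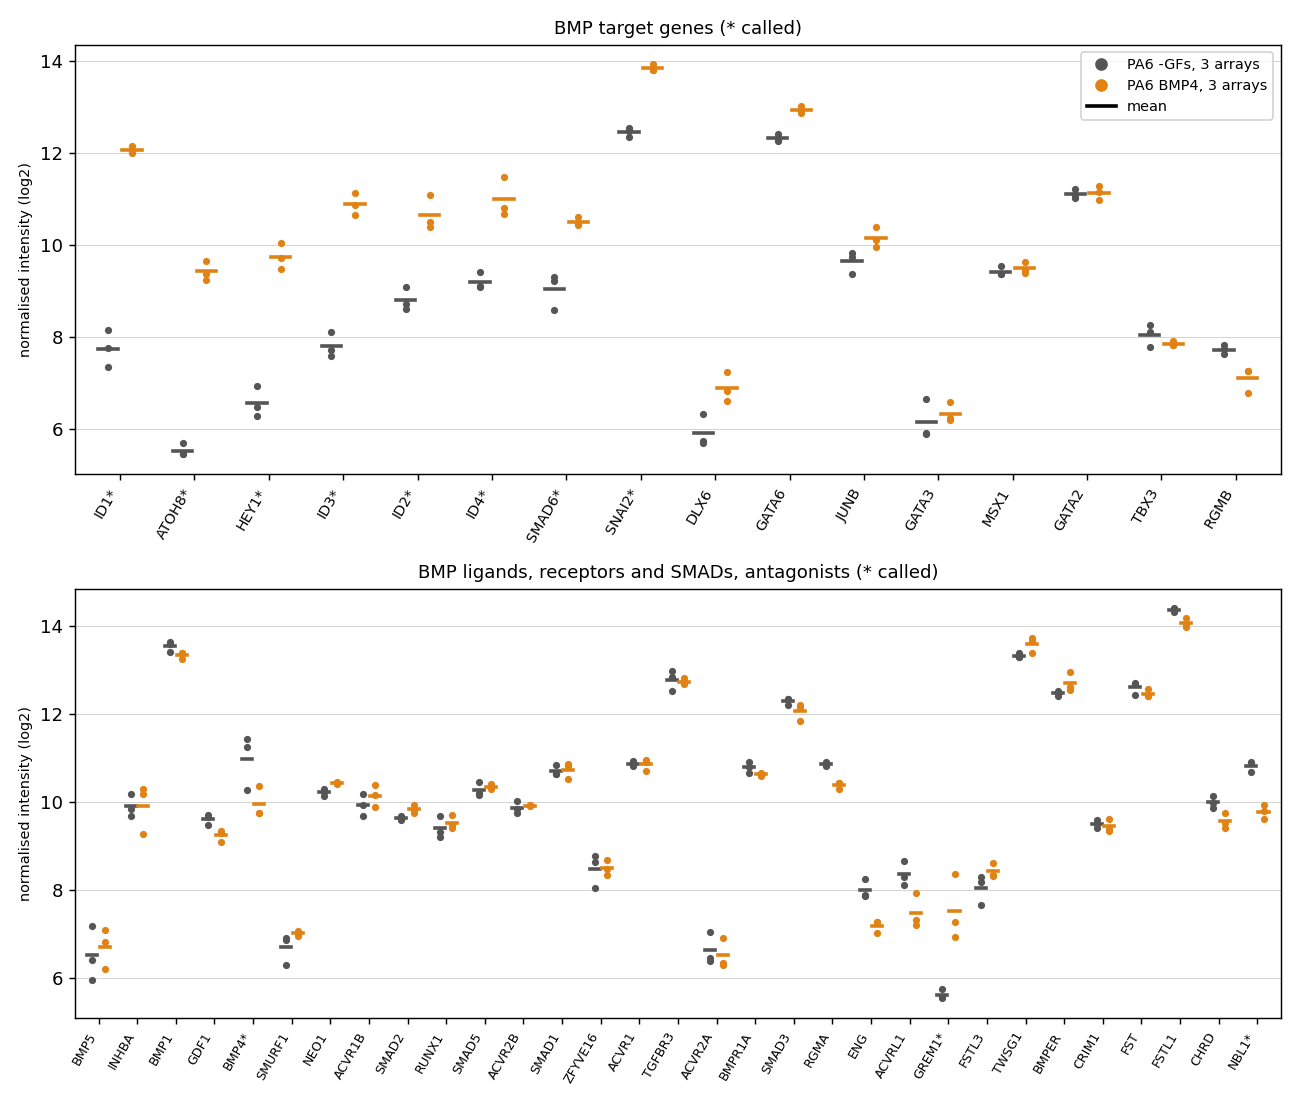
Normalized log2 intensity (vertical) of the BMP target genes (top) and of BMP ligands, receptors, SMADs and antagonists (bottom), with 1 point per array, 3 -GFs arrays in grey and 3 BMP4 arrays in orange, and a bar at each group's mean. An asterisk marks a called gene. The 8 called target genes, from ID1 to SNAI2, have groups that do not overlap, whereas the receptors and SMADs overlap or lie close. For ID1, ATOH8, HEY1 and ID3 the rule for the largest rises required groups that do not overlap.

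Genes of fat cells formed the second group that stood out. Of 39 adipocyte and lipid droplet genes, 29 were members, 8 rose and 1 fell, the median change was 0.79 and 24 of the 29 lay above 0. DGAT2, the enzyme of the last step of triglyceride synthesis, read 9.38, 10.12 and 9.55 in -GFs and 11.42, 13.14 and 11.68 with BMP4, a change of 2.39 ± 0.58 (adjusted p 0.037). PLIN, which coats lipid droplets, was below detection in -GFs at 5.86, 5.36 and 5.11 and read 7.09, 8.72 and 7.59 with BMP4, at least 2.83-fold higher (adjusted p 0.0114). ACSL1, which activates fatty acids, went from 9.75, 10.16 and 9.80 to 11.19, 12.998 and 11.69 (2.05, adjusted p 0.0239). The groups were apart in all 3 genes, and BMP4 replicate 2 was the highest array in each. For DGAT2 and PLIN the rule for the 12 largest rises required groups that do not overlap. The fatty acid carrier FABP5 rose by 1.87, the lipase LPL by 1.26, AGPAT2, another enzyme of triglyceride synthesis, by 1.21, the glycerol channel AQP7 by 1.15 and the desaturase SCD1 by 1.02. ANGPTL4, an inhibitor of LPL, fell by 1.25 (adjusted p 0.00581), whereas a second probe gave 0.02. Its call was lost with cubic spline normalization, and its smallest change over the alternatives was -0.99.

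Some of the best known markers of fat cells had large changes that did not pass in the fit of all 18 arrays. ADIPOQ, an adipocyte hormone, read 11.42, 11.74 and 11.62 in -GFs and 12.95, 14.33 and 13.05 with BMP4, a change of 1.85 ± 0.66 (adjusted p 0.198). CFD, a secreted protease of fat tissue, read 11.94, 12.59 and 12.24 against 13.47, 14.69 and 13.58 (1.66, adjusted p 0.349). PPARG, the master regulator of fat cell formation, read 10.36, 10.34 and 10.29 against 10.97, 12.07 and 11.22 (1.09, adjusted p 0.221). The groups did not overlap in these 3 genes. CIDEC changed by 1.27 and the transcription factor CEBPA by 0.93. When the replicate number entered the fit as a block, separately for mono- and co-cultures, ADIPOQ, CFD, CIDEC and PPARG were called, with adjusted p-values of 0.0333, 0.00626, 0.0938 and 0.00931. These genes were also called when only the 6 arrays compared, or only the 9 mono-culture arrays, were fitted. Their ranges over the alternatives were 0.0333 to 0.555, 0.00626 to 0.707, 0.012 to 0.747 and 0.00931 to 0.616. With the block, 13 list members were called.

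The fat cell genes leaned on 1 library. BMP4 replicate 2 was the highest of the 3 BMP4 arrays for 24 of the 29 members and for all 8 that rose. Without that array only PLIN and ANGPTL4 were called, 2 in place of 9. The changes were then 1.86 in DGAT2 (adjusted p 0.187), 1.53 in ACSL1 (0.127), 1.44 in FABP5 (0.106), 1.09 in LPL (0.171), 0.90 in AGPAT2 (0.136), 0.88 in AQP7 (0.11) and 0.94 in SCD1 (0.0217), all in the same direction. DGAT2 was also lost without -GFs replicate 1 or 3 (2.24 and 2.33), LPL without -GFs replicate 2 or 3 (1.18 and 1.27), and SCD1 and AQP7 without -GFs replicate 2 (0.90 and 0.84). Outside the list, and picked after the values were seen, AGPAT9 (now GPAT3), which starts triglyceride synthesis, read 7.04, 6.91 and 7.07 against 8.11, 9.55 and 8.31 (1.65, adjusted p 0.0651). Its call ended when any single -GFs array was left out (1.67, 1.60 and 1.68) and when BMP4 replicate 2 was (1.20). In these bulk cultures, more fat cells and more RNA of these genes per cell cannot be told apart.

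Sterol and fatty acid synthesis genes lay in the same direction with smaller changes. Of 21 members, 20 were above 0 with a median of 0.38 (0.36 with members below detection in 1 group set at their bound), none was called by limma and 11 had an unadjusted p under 0.05. HSD17B7, an enzyme of cholesterol synthesis, changed by 0.76 (adjusted p 0.0233) and the fatty acid elongase ELOVL6 by 0.74 (adjusted p 0.0407), both short of the fold threshold.

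Genes of bone and cartilage showed no common direction. Of 18 members, 7 lay above 0, the median was -0.10 and 1 was called. That gene was TNFRSF11B, which encodes osteoprotegerin, the decoy receptor that restrains osteoclasts. It read 6.67, 6.39 and 5.74 in -GFs, where it was detected on 2 arrays, and 8.68, 8.02 and 8.66 with BMP4, a change of 2.18 ± 0.22 (adjusted p 8.72e-05), and every BMP4 array lay above every -GFs array. SPP1, which encodes osteopontin, read 9.47, 7.57 and 8.80 against 7.78, 5.51 and 7.44, a change of -1.70 ± 0.59 (adjusted p 0.179). Its groups overlapped, and replicate 2 was the lowest array of both. It was called with the replicate block (adjusted p 0.0319, range 0.0319 to 0.597 over its alternatives) and without -GFs replicate 2 (-2.22, adjusted p 0.0987). COL2A1, the main cartilage collagen, changed by 0.79 and COMP by 0.78. SP7, the osteoblast transcription factor, was detected on no -GFs and 2 BMP4 arrays and was not a member. TNFSF11, the ligand that osteoprotegerin binds, was detected only with BMP4 and was not called (adjusted p 0.413).

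Among matrix genes 4 fell and 1 rose. Dermatopontin and fibromodulin, which organize collagen fibrils, were the members of their list of 9 that passed, and both fell. DPT read 8.77, 8.52 and 8.64 in -GFs and 6.52, 5.33 and 5.34 with BMP4, where 1 array detected it, a change of -2.91 ± 0.37 (adjusted p 0.000496). FMOD read 10.35, 10.20 and 10.45 against 9.03, 8.15 and 8.86 (-1.65, adjusted p 0.00177), and its second probe gave -1.62. The groups were apart in both. The abundant proteoglycans BGN, DCN and OGN, all above 15 on every array, changed by 0.04, 0.04 and 0.01, and LUM by 0.14. The first 3 lay near the top of the scale, and whether their readings were saturated was not tested.

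Of 26 collagen genes, 2 fell and 1 rose, and 16 lay below 0. COL3A1, a fibrillar collagen, read 12.95, 12.64 and 12.32 in -GFs and 11.46, 10.83 and 10.88 with BMP4, a change of -1.58 ± 0.29 (adjusted p 0.00828), with -1.66 at its second probe. COL6A3 went from 13.66, 13.39 and 13.35 to 12.21, 12.41 and 12.58 (-1.07, adjusted p 0.0105), and leaving out replicate 1 of either group brought it under the fold threshold (-0.97 for each). COL9A2, a collagen of cartilage, rose from 6.67, 6.69 and 6.47 to 7.58, 8.22 and 8.21 (1.39, adjusted p 0.00825). Its call was lost with cubic spline normalization, and its lowest change over the alternatives was 0.86. The groups of all 3 were apart. The subunits of type I collagen were lower without passing, COL1A2 at -0.92 (adjusted p 0.0271) and COL1A1 at -0.57 (adjusted p 0.292). Of 24 matrix proteases and their inhibitors, none was called by limma and 5 had an unadjusted p under 0.05.

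Outside these lists, and chosen after its values were seen, tetranectin fell at both of its names in the table. TNA read 10.61, 10.25 and 10.57 against 9.14, 8.43 and 8.69 (-1.72, adjusted p 0.00432), and CLEC3B 10.31, 10.87 and 10.97 against 9.16, 9.15 and 9.08 (-1.59, adjusted p 0.00229). ADAM12, a membrane metalloprotease, rose by 1.60 (adjusted p 0.00887).

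Interferon-inducible genes were mostly lower with BMP4. Of 61 on the list, 42 were members, 4 fell and 1 rose, 35 of the 42 lay below 0 and the median was -0.30. IFI205, an interferon-activated gene of a family of similar genes, read 11.68, 11.45 and 11.56 in -GFs and 9.85, 8.51 and 8.84 with BMP4, a change of -2.50 ± 0.47 (adjusted p 0.00854), and its further probes gave -2.98 and -1.40. RSAD2, which encodes the antiviral protein viperin, read 7.98, 7.02 and 7.31 in -GFs and was below detection with BMP4 at 5.35, 5.44 and 4.99, at least 2.37-fold lower (adjusted p 0.00846). IFI27 went from 13.93, 13.90 and 14.28 to 12.82, 11.74 and 12.33 (-1.74, adjusted p 0.00546). In each of these the BMP4 arrays all lay below the -GFs arrays, which for IFI205 and RSAD2 the rule for the 12 largest falls required. IFIT2 fell by 1.27 (adjusted p 0.0151). IFIT3 changed by -1.50 (adjusted p 0.104) and BST2 by -1.14 (adjusted p 0.115, with overlapping groups), and both were called with the replicate block (adjusted p 0.0432 and 0.0096). Their ranges over the alternatives were 0.0119 to 0.323 and 0.0085 to 0.405, and BST2 was also called without -GFs replicate 3 (-1.64). Both were called with cubic spline normalization too. IFIT3 was also called when only the 6 arrays compared, or only the 9 mono-culture arrays, were fitted.

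The list also holds the IRF factors that switch such genes on, and 1 of these was the gene that rose. IRF5, a transcription factor of innate immunity, was below detection in -GFs at 5.28, 5.53 and 5.19 and read 9.14, 8.89 and 9.25 with BMP4. It was at least 6.94-fold higher (adjusted p 1.9e-08), and no alternative lost the call. Blood cells also express IRF5. Of 5 blood cell markers tested, LYZ2 and CSF1R were members and 3 were detected on no array, and their summed linear level was 328 to 386 in -GFs and 287 to 422 with BMP4. Also lower, and named after the values were seen, were IFI30, a lysosomal reductase, by 1.44 (adjusted p 0.00825) and MNDA (now IFI211) at -1.30. MNDA had overlapping groups and did not pass when -GFs replicate 1 or 2 was left out (-1.01 and -1.06). The same held for BMP4 replicates 2 and 3 (-1.12 and -1.23).

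**Figure D3:**
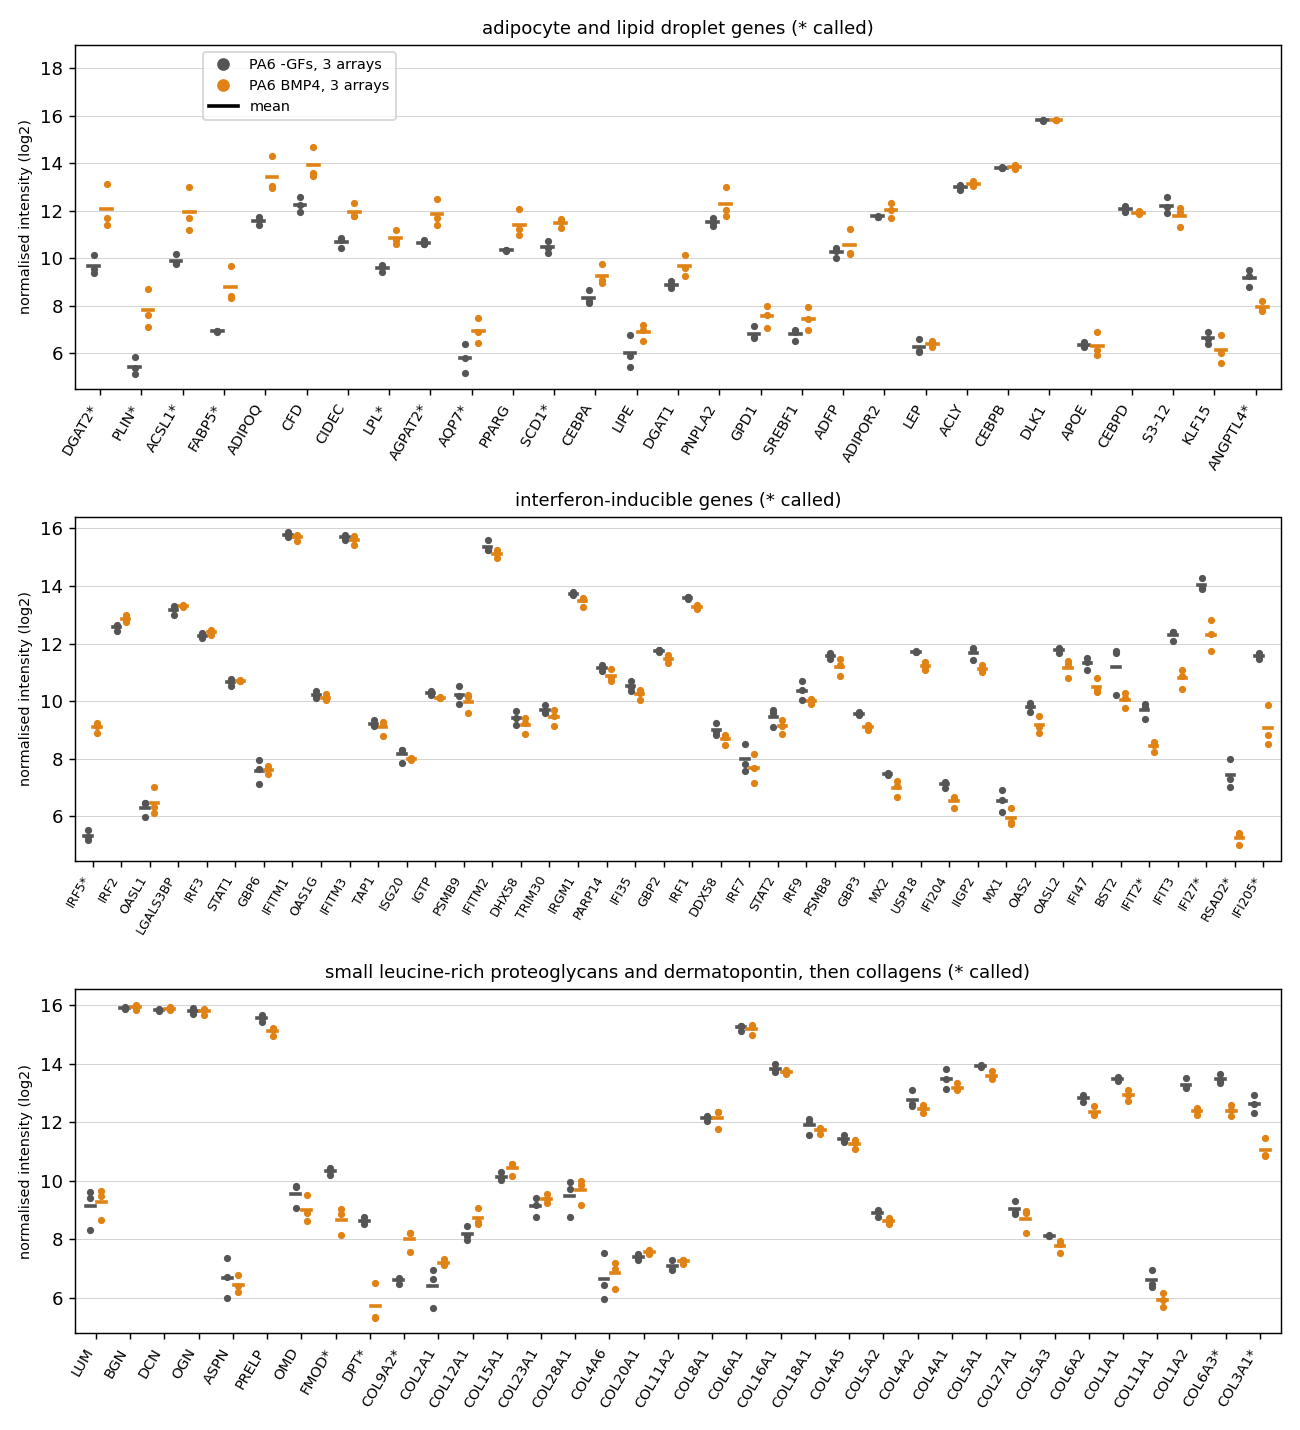
Normalized log2 intensity (vertical) of the adipocyte and lipid droplet genes (top), the interferon-inducible genes (middle) and the small leucine-rich proteoglycans, dermatopontin and collagens (bottom), with 1 point per array, 3 -GFs arrays in grey and 3 BMP4 arrays in orange, bars at group means and asterisks at called genes. The orange mean lies above the grey mean for 24 of the 29 adipocyte genes and below it for 35 of the 42 interferon genes, and within the fat cell genes BMP4 replicate 2 gives the highest orange point in 24.

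In the WNT list 2 of 23 members rose and the median was -0.01. WNT5A, a ligand of the β-catenin-independent branch, read 9.57, 9.37 and 9.50 in -GFs and 11.12, 10.32 and 10.95 with BMP4, a change of 1.32 ± 0.20 (adjusted p 0.00177), and its other probes gave 1.15 and 1.32. AXIN2, a feedback target of β-catenin, read 6.97, 7.14 and 6.25 against 7.79, 8.21 and 7.84 (1.16, adjusted p 0.088), and leaving out any 1 of the 6 arrays ended this call, with changes from 0.89 to 1.33. The groups did not overlap in either gene. The receptors FZD4, FZD6, LRP5 and LRP6 and β-catenin itself, CTNNB1, changed by 0.04, 0.22, -0.05, 0.15 and -0.22. WNT6 was detected on no mono-culture array of either group and was not a member.

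In the FGF and VEGF list 3 of 22 members rose and 1, ANGPTL4, fell. FGF10, a ligand secreted by mesenchyme, read 10.02, 10.16 and 10.49 in -GFs and 11.37, 11.74 and 11.60 with BMP4 (1.35, adjusted p 0.0266), and its further probes gave 1.28 and 1.50. Its main receptor gene, FGFR2, went from 11.93, 11.96 and 11.69 to 12.81, 12.91 and 12.99 (1.04, adjusted p 0.0227). FGFR3 was dimmer, detected on 1 -GFs array, at 5.86, 5.39 and 6.39 against 6.89, 7.68 and 6.79 (1.24, adjusted p 0.0109). The 3 genes had separate groups. FGF10 was lost without -GFs replicate 1 or BMP4 replicate 2 (1.24 and 1.26), FGFR2 without -GFs replicate 3 (0.96) and FGFR3 without -GFs replicate 2 or BMP4 replicate 2 (0.998 and 0.96). VEGFA changed by 0.53 (adjusted p 0.272) and FGF18 by -0.95 (adjusted p 0.115).

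Of 11 Notch genes, HEY1 rose and DTX4, a ubiquitin ligase of the Notch pathway, fell from 9.16, 8.48 and 8.39 to 7.16, 6.78 and 7.08 (-1.67, adjusted p 0.00143). The Notch target HES1 changed by 0.41, HEY2 by 0.03, the ligand JAG1 by 0.41 and the receptor NOTCH3 by 0.63 (adjusted p 0.0576), so the rise of HEY1 had no counterpart past the threshold among these. Among 16 transcription factors of epithelial-mesenchymal transition, SNAI2 rose. SNAI1, TWIST1, ZEB1 and ZEB2 changed by 0.44, -0.24, -0.42 and 0.19, and FOXC2 by 1.16 (adjusted p 0.196, with the replicate block 0.00931, range 0.00931 to 0.431). FOXC2 was called with the block and when only the 6 arrays compared, or only the 9 mono-culture arrays, were fitted. A dim probe under the old name ZFHX1A, now ZEB1, fell by 1.38 (adjusted p 0.000939), whereas the bright ZEB1 probe read 12.98, 13.12 and 12.93 against 12.57, 12.39 and 12.82, so the probes of this gene disagree in size.

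TGFβ ligands, receptors and targets were not called in any of 18 members by limma, which at a share of 1.71% over all members is no result about them. Of the 18, 6 had an unadjusted p under 0.05, against 1844 of all 12848 members. TGFB1 read 8.59, 8.53 and 8.38 in -GFs and 8.75, 8.81 and 8.90 with BMP4 (0.32, adjusted p 0.733), TGFBR1 changed by 0.38, TGFBR2 by -0.63 and CTGF, now CCN2, by 0.72. Contractile and SRF target genes were not called either (0 of 22, with 7 at an unadjusted p under 0.05), and ACTA2, smooth muscle actin, changed by 0.15.

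Of 30 chemokine and interleukin genes, 2 fell and none rose by limma, with 9 at an unadjusted p under 0.05. IL1RL1, the receptor of IL-33, read 8.52, 7.26 and 7.92 in -GFs and was below detection with BMP4 at 5.44, 5.40 and 5.62, at least 3.26-fold lower (adjusted p 0.000969). CCL7, a monocyte chemokine, read 14.20, 14.59 and 14.64 against 13.13, 13.10 and 12.90 (-1.43, adjusted p 0.0111), with -1.45 at its second probe. The groups were apart in both. CCL2 changed by -1.19, CCL5 by -1.19 and IL1RN, the interleukin 1 receptor antagonist, by 1.28, with adjusted p-values of 0.277, 0.236 and 0.137. With the replicate block these 3 were called too (0.00556, 0.0189 and 0.00135), which made 5 of 30, and their ranges over the alternatives were 0.00556 to 0.509, 0.0189 to 0.555 and 0.00135 to 0.407, and IL1RN was also called without -GFs replicate 2 (1.61). With only the 9 mono-culture arrays fitted, CCL2, CCL5 and IL1RN were also called. With only the 6 arrays compared, CCL2 was called. IL33 itself changed by 1.17 (adjusted p 0.136) and was called in both of these smaller fits.

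Of 13 stromal niche factors none was called by limma, and 7 had an unadjusted p under 0.05, against 1844 of all 12848 members. CXCL12, the chemokine that retains blood stem cells in marrow, was near the top of the scale at 15.20, 15.26 and 15.39 in -GFs and 15.76, 15.60 and 15.67 with BMP4 (0.39, adjusted p 0.694). VCAM1 changed by -0.57, HGF by 0.78 and ANGPT1 by 0.91. PTN, a heparin-binding growth factor, changed by -1.02 (adjusted p 0.276). With the replicate block PTN and SPP1 were called (adjusted p 0.0157 for PTN, range 0.0157 to 0.579 over its alternatives).

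Of 31 drug-metabolizing enzymes, 4 rose and none fell. FMO1, a flavin-containing monooxygenase, read 7.47, 7.23 and 7.21 in -GFs and 10.52, 10.66 and 10.34 with BMP4, a change of 3.20 ± 0.41 (adjusted p 0.000524), with 1.20 at its second probe. ALDH1A7, an aldehyde dehydrogenase with close relatives in the genome, read 6.95, 8.04 and 6.88 against 9.25, 11.22 and 9.31 (2.63, adjusted p 0.0151). Replicate 2 was the highest array of its group in both conditions for ALDH1A7, and the groups were apart in both genes. ALDH1A3, which makes retinoic acid, rose by 1.40 and the glutathione transferase GSTM7 by 1.14. GSTM7 was not called with cubic spline normalization, and its lowest change over the alternatives was 0.65. ALDH1A1 changed by -0.76 (adjusted p 0.615). GSTA3 changed by 1.57 and was called with the replicate block (adjusted p 0.0226, range 0.0226 to 0.635).

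**Figure D4:**
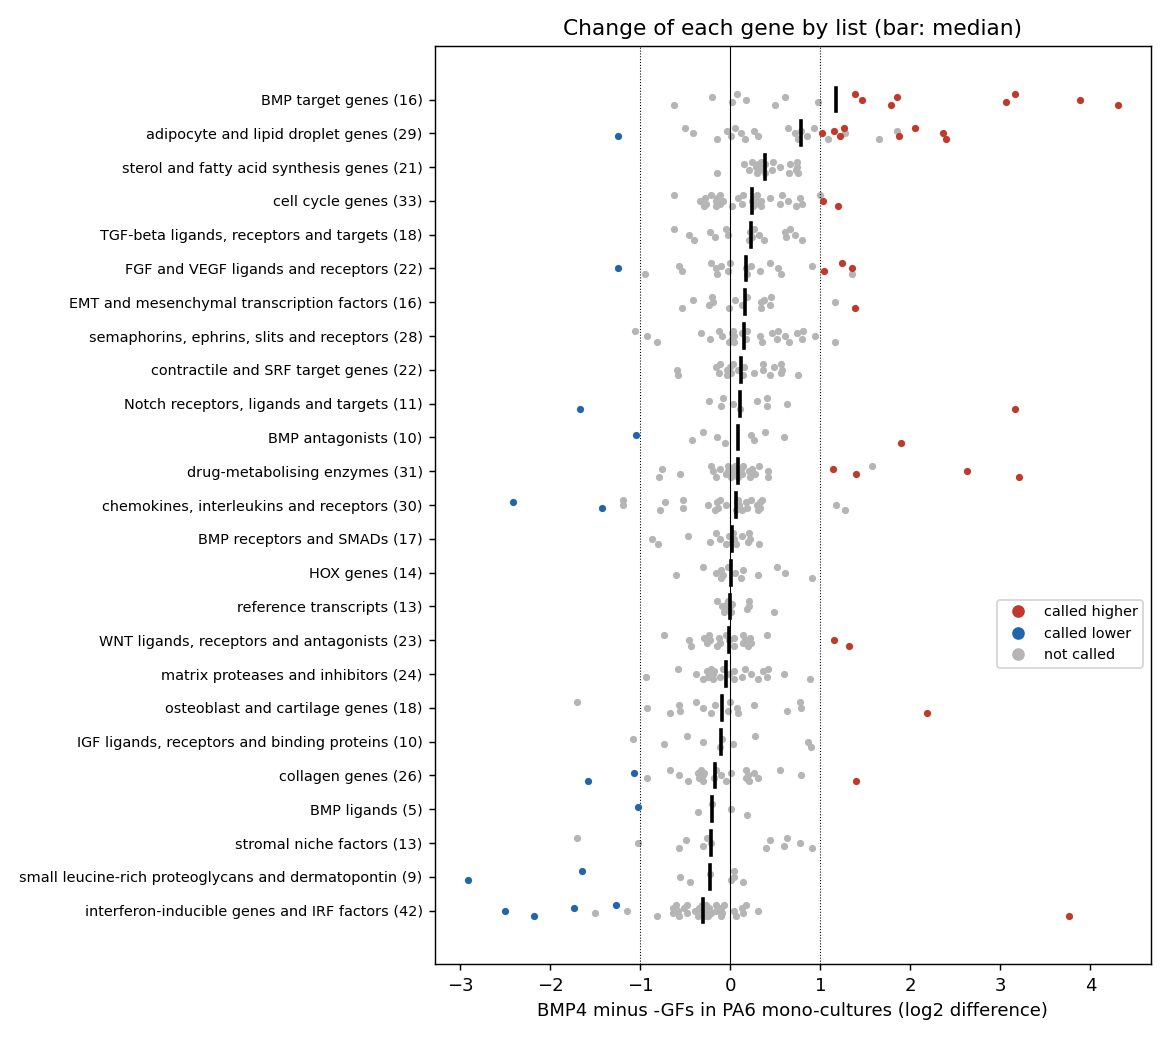
Change with BMP4 in PA6 mono-cultures (log2, horizontal) of every member gene of 25 gene lists, 1 point per gene, with the number of members in parentheses and a black bar at the list's median. Red points rose, blue points fell and grey points were not called. BMP target genes (median 1.18) and adipocyte genes (0.79) lie farthest to the right and interferon-inducible genes (-0.30) farthest to the left, while reference transcripts centre on 0.

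Several of the 12 largest rises and 12 largest falls, by fitted change, belong to none of the groups above. NCAM1, a neural cell adhesion molecule, was below detection in -GFs at 5.35, 5.30 and 5.73 and read 8.61, 7.69 and 8.25 with BMP4, at least 3.69-fold higher (adjusted p 8.81e-05), but a second probe of the gene changed by 0.21. SLC13A4, a sulfate transporter, was below detection at 5.41, 5.78 and 4.97 and read 7.64, 8.72 and 7.31, at least 3.01-fold higher (adjusted p 0.000739). Groups that do not overlap were a condition for a place among these 12 rises and 12 falls, here and in the next paragraphs.

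Among the falls, 2 were imprinted genes. H19, an imprinted non-coding RNA, read 13.26, 12.61 and 13.47 in -GFs and 11.39, 9.68 and 11.08 with BMP4, a change of -2.40 ± 0.46 (adjusted p 0.00972), with -2.45 at its second probe. MEST, expressed from the paternal allele, read 8.08, 7.63 and 7.57 and was below detection with BMP4 at 6.06, 5.59 and 5.34, at least 2.97-fold lower (adjusted p 0.0091), and its further probes gave -2.06 and -1.39. The groups were apart in both. IGF2, the imprinted neighbour of H19, read 15.75, 15.28 and 15.63 against 15.27, 14.84 and 15.11 (-0.48, adjusted p 0.681). No gene of the IGF list was called by limma (0 of 10, with 4 at an unadjusted p under 0.05), and IGFBP6, at -1.09, was called with the replicate block (adjusted p 0.0678, range 0.0392 to 0.561). IGFBP6 was also called with cubic spline normalization and with only the 9 mono-culture arrays fitted.

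ZCCHC5, now RTL3, a gene derived from a retrotransposon, read 9.96, 10.12 and 9.92 against 7.32, 6.92 and 6.96, a change of -2.93 ± 0.35 (adjusted p 0.000289). BC064033, which has no current symbol in the table used, went from 9.78, 9.64 and 9.26 to 7.51, 6.85 and 6.66 (-2.55, adjusted p 1.7e-06), and a second probe gave -2.67. LOC100047583, likewise without a current symbol, read 15.43, 15.00 and 15.29 against 13.42, 12.14 and 12.85 (-2.44, adjusted p 0.00126). All 3 had separate groups. ENTPD2, an enzyme that breaks down extracellular ATP, went from 13.41, 13.17 and 13.11 to 11.69, 10.68 and 11.02 (-2.10, adjusted p 0.000477). MRGPRF, an orphan receptor, went from 11.48, 11.90 and 11.79 to 9.81, 9.27 and 9.92 (-2.06, adjusted p 0.0227), a call that was lost without BMP4 replicate 2 (-1.86, adjusted p 0.112, range 0.00022 to 0.112). SERPINA3H, a protease inhibitor from a cluster of near-identical genes, was below detection with BMP4 and at least 2.24-fold lower (adjusted p 0.000881), and the probe may not tell it from its neighbours. FAM102A and the transcription factor JUN, chosen after their values were seen, fell by 1.97 (adjusted p 6.92e-07) and 1.65 (adjusted p 0.0116).

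Other called genes above the threshold, also named after the values were seen, were of mixed function. STC1, a secreted glycoprotein, read 7.10, 7.85 and 7.42 against 10.15, 9.32 and 8.96 (2.02, adjusted p 0.00339). HPCA, a neuronal calcium sensor, went from 8.55, 8.41 and 8.20 to 10.64, 10.36 and 10.38 (2.08, adjusted p 0.00177). The water channel AQP1 rose by 2.02 and the secreted factor EGFL7 by 1.65, with 0.78 and 1.99 at their second probes. COX8B, a subunit of mitochondrial cytochrome oxidase known from brown fat and muscle, rose by 1.97 (adjusted p 0.000335).

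Genes of the cell cycle lay slightly above 0, with a median of 0.24 over 33 members and 21 above 0. TK1 and AURKA, both dim, were called. TK1 changed by 1.20, and AURKA, below detection in -GFs, was at least 1.39-fold higher with BMP4 (adjusted p 0.0181). Both calls were lost without -GFs replicate 1 or 2 or BMP4 replicate 2. TK1 was then at 1.07, 1.003 and 1.08, and it was also lost without BMP4 replicate 1 (1.08). The other probes of TK1 changed by -0.32 and -0.19. MCM5 changed by 0.9992 (adjusted p 0.048) and CDC20 by 0.80 (adjusted p 0.0499), both short of the fold threshold, which MCM5 passed without BMP4 replicate 3 (1.15). None of 14 HOX genes was called by limma, with 4 at an unadjusted p under 0.05, and none of 28 semaphorin, ephrin and slit genes, with 11 at an unadjusted p under 0.05. With the replicate block 2 of the latter, EPHA7 and SEMA3B, were called, and without BMP4 replicate 2 there was 1 call in each of these 2 lists. The reference transcripts had a median of 0.00, with 0 of 13 called by limma and 0 at an unadjusted p under 0.05. TBP changed by -0.07, GAPDH by 0.00, PPIA by -0.04 and ACTB by 0.19.

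The same treatment was given to ES/PA6 co-cultures, and a contrast in the same fit asked whether the change in the mono-cultures differed from the change there. It did for 71 member genes (0.553%), 43 with the higher change in the mono-cultures and 28 with the lower. Of the 220 genes called in the mono-cultures, 46 had a called difference, 31 of the genes that rose and 15 of those that fell. The median change in the co-cultures was 0.33 for the genes that rose in the mono-cultures, with 99 of 132 above 0, and -0.30 for those that fell, with 68 of 88 below 0. The 220 were chosen by their change in the mono-cultures, which is also part of the contrast. That choice alone favours called differences and smaller changes in the co-cultures, and its share in these counts was not tested. ID1 changed by 1.01 in the co-cultures, a difference of 3.29 (adjusted p 0.033), and ID3 by 0.62, a difference of 2.45 (adjusted p 0.00141). HEY1 changed by 0.10 there, a difference of 3.06 (adjusted p 0.0219). Its mean without factors was already 9.14 in the co-cultures, against 6.58 in the mono-cultures and 9.74 in the mono-cultures with BMP4. The 0.10 thus does not show that PA6 cells in co-culture lacked the change. The differences of ATOH8 and IRF5 were called too (adjusted p 0.00018 and 4.69e-06), but both genes were below detection in the -GFs cultures of either type. In the co-cultures with BMP4, ATOH8 was detected on 1 array and IRF5 on none, so no size is given. The differences of ID4 (1.22, adjusted p 0.145), SMAD6 (0.78) and SNAI2 (0.57) were not called.

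For other genes no difference between the culture types was called. ALDH1A7 and DGAT2 changed by 2.25 and 2.03 in the co-cultures, DTX4 by -1.67 and ENTPD2 by -3.04, with differences of 0.38 ± 0.77 (SE), 0.37 ± 0.81, -0.00 ± 0.35 and 0.94 ± 0.38. None of these was called, which does not show that the changes were equal. TBX3, ENG and KLF2, not called in the mono-cultures at -0.20, -0.80 and -0.60, changed by 1.13, 0.63 and 0.58 in the co-cultures, and their differences were called (-1.34, -1.44 and -1.18, adjusted p 0.0763, 0.0653 and 0.041). The co-cultures hold ES cells besides PA6 cells: the summed linear level of the 11 stromal markers was 80980 to 103400 in co-cultures without factors against 202700 to 208100 in the mono-cultures, and the part of this in the differences was not tested. The count of 71 rested on single libraries. It was 33 without ES/PA6 -GFs replicate 2, 39 and 42 without PA6 -GFs replicate 2 or 3 and 43 without PA6 BMP4 replicate 2, and with the replicate number as a block it was 195.

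**Figure D5:**
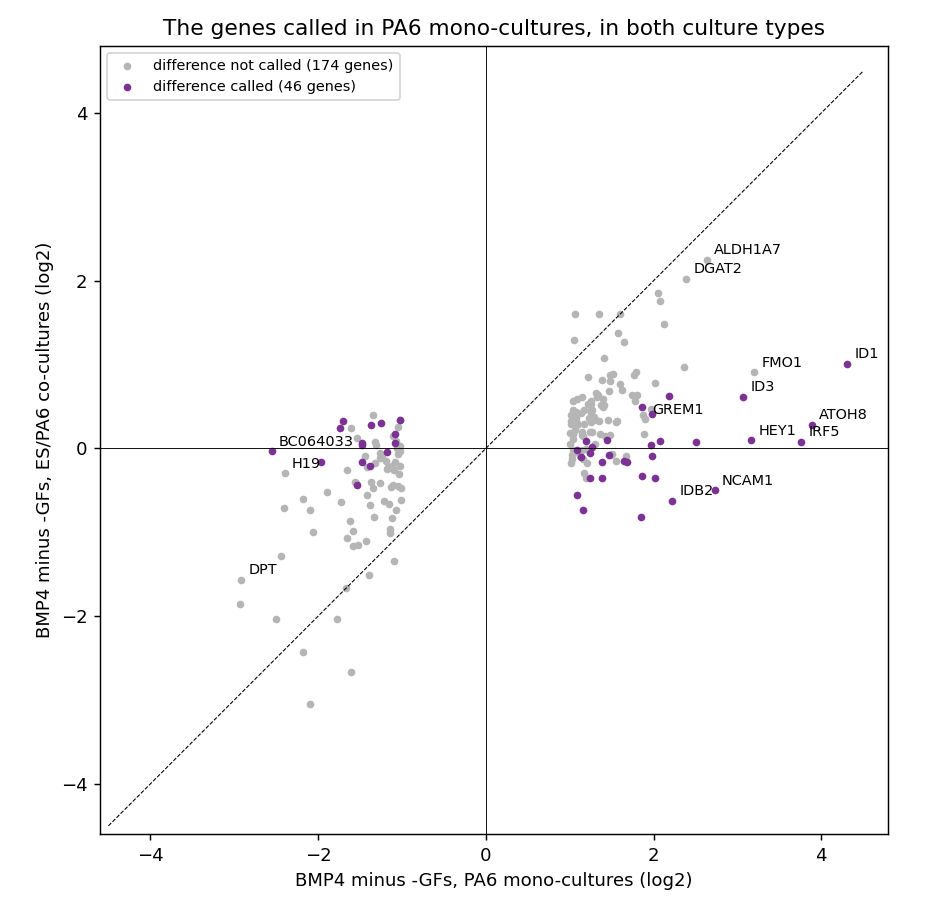
Change with BMP4 in ES/PA6 co-cultures (vertical, log2) against the change in PA6 mono-cultures (horizontal, log2) for the 220 genes called in the mono-cultures. Purple marks the 46 genes whose difference between the culture types was called, grey the others, and the dashed line marks equal change. ID1 and HEY1 lie far below the line, with co-culture changes of 1.01 and 0.10, while ALDH1A7 and DGAT2 lie close to it. Points of genes below detection in a group, ATOH8 and IRF5 among them, are fitted values.

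FGF2 at 20 ng/ml was given to other PA6 mono-cultures and was set against the same -GFs arrays, so both sets of changes share their controls and are given side by side without a comparison. ID3 changed by 2.20 with FGF2, where BMP4 gave 3.07. ID4 changed by -1.91 and FMO1 by -1.35 with FGF2, where BMP4 gave 1.78 and 3.20. HEY1, IRF5 and FMOD were detected on none of the 3 FGF2 arrays, and ATOH8 on all 3. BC064033 and MEST, which fell with BMP4, were also detected on none of the 3 FGF2 arrays. In the fat cell genes, ADIPOQ changed by -4.65, CFD by -4.79 and LPL by -2.75 with FGF2, and by 1.85, 1.66 and 1.26 with BMP4. Among the others of the 12 largest falls with BMP4, MRGPRF, ENTPD2, LOC100047583 and IFI205 changed by -2.46, -2.20, -1.98 and -1.83 with FGF2. DPT, ZCCHC5 and RSAD2 changed by -1.32, -1.20 and -0.05 with FGF2, and IL1RL1, SERPINA3H and H19 by 1.71, 1.24 and 0.81.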

How the data were processed

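The authors hybridised 18 samples to Illumina mouse bead arrays and read them with GenomeStudio 2011.01. The deposited table holds, per probe and array, a bead intensity that was not normalized and a detection p-value. The study's own methods used a cubic spline normalization, and a version of it written for this report was tried as an alternative. It maps each uncorrected array onto the mean of the sorted arrays. It is thus close to quantile normalization of uncorrected intensities and may differ from the study's procedure. Here 5 stray lines were left out, and intensities were background corrected, quantile normalized and put on the log2 scale with neqc (offset 16) in limma 3.58.1 under R 4.3.3, which infers the background from the detection p-values. Probes detected (p below 0.05) on 3 or more of the 18 arrays were fitted (lmFit, eBayes) with all 6 groups, and p-values were adjusted by the Benjamini-Hochberg method over 16446 genes. The number of arrays limits the precision, and a permutation test of 3 against 3 cannot go below 0.1. A gene not detected on any array of a group was given a lower bound of its fold, set against the lowest detected signal or its own, whichever was higher.

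Replicates with the same number deviated together from their group means, with weak correlations of 0.185, 0.14 and 0.172. The labels do not say that equal numbers pair samples, so the pairing is an assumption of the block. The study's methods name no block, and the replicate block was an alternative. The text names the 12 largest rises and the 12 largest falls with groups that do not overlap, called genes of the gene lists, and genes needed to describe a family. The members and lists were chosen with earlier results of these data known. Current symbols were matched for 10533 member genes. Probe sequences were not used here, so genes of near-identical families are uncertain. A few genes are not reported here. The procedure was tested on simulated data.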

Additional observations from a re-analysis of the deposited data

Results flagged for a closer look

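The change with BMP4 differed between PA6 mono-cultures and ES/PA6 co-cultures for 9 of the genes with the largest changes, by the contrast of both changes in limma, and each value is the change in mono-cultures minus that in co-cultures on the log2 scale. These genes were chosen for their large change in the mono-cultures, which is part of the contrast. The choice therefore pushes the differences in the direction given. The difference was 3.294 for ID1 (adjusted p 0.033), 3.607 for ATOH8 (adjusted p 0.00018), 3.681 for IRF5 (adjusted p 4.69e-06) and 3.064 for HEY1 (adjusted p 0.0219). It was 2.451 for ID3 (adjusted p 0.00141), 3.225 for NCAM1 (adjusted p 0.00122), 2.427 for SLC13A4 (adjusted p 0.0425) and 2.848 for IDB2 (adjusted p 0.062). For BC064033 it was -2.518 (adjusted p 0.000339). ATOH8, IRF5, NCAM1 and SLC13A4 were below detection in the -GFs mono-cultures, IRF5 and BC064033 in all co-cultures of the contrast and ATOH8 in all but 1, so for these 5 genes the values are differences of fitted readings and not sizes of change. Without factors, ID1, ID3, HEY1, NCAM1 and SLC13A4 had means of 9.06, 8.23, 9.14, 7.42 and 7.15 in the co-cultures. Their means without factors in the mono-cultures were 7.75, 7.81, 6.58, 5.46 and 5.39. IDB2 had 8.31 in the co-cultures against 9.05. The co-cultures also hold ES cells, and the part of cell composition in these differences was not tested.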

How the results depend on the processing

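The 220 called genes became 135 with the cubic spline and 135 with quantile normalization of uncorrected intensities (124 shared in each case), 146 where detection on all 6 arrays was required (79 of the 220 were then not tested) and 590 without a fold threshold. The cubic spline and this quantile setting are near-equal procedures, so they amount to 1 check. Leaving out 1 array gave 173 to 223. The 71 genes with a called difference between culture types became 45 with detection on all 6 arrays and 32 at an adjusted p under 0.05, and 33 to 72 without 1 array. With the replicate block, all 220 genes remained among 258 called, and 195 differences were called in place of 71. For the change in the mono-cultures, the block changed no call of a named gene beside those the report gives. The calls of BMP4, NBL1, KLF4, SCD1, AQP7, ANGPTL4 and COL9A2 were lost with the cubic spline and with quantile normalization of uncorrected intensities. The same held for AXIN2, FGFR3, GSTM7, AURKA, TK1, ZFHX1A and MNDA. No called change of a named gene reversed under the alternatives run, 52 of 82 named called genes were called under every alternative that tested them, and the cause of the other moves was not tested. Signals near background limit the folds of genes detected in 1 group only.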
